A study of Rattus norvegicus with 4 samples.

Results

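Immune genes were followed on 4 Affymetrix rat U34 arrays (set A) of testis RNA. They were the genes of the major histocompatibility complex (MHC, called RT1 in the rat), complement, chemokines, interleukins, Fc receptors and macrophage and leukocyte markers. Members were chosen by gene name alone. A probe set, the group of probes that reports 1 transcript, was taken when the platform annotation paired it with a single symbol that begins with RT1-, C1q, Ccl, Ccr, Cxcl, Cxcr, Il (with a digit), Fcg or Fcer, or that is Cd74, B2m, Tap1, Tap2, C3, Cd53, Cd14, Ptprc, Csf1r, Aif1, Lyz2 or Lgals3. Cd68 and Cd163 were also on the list of names, and no probe set was taken for them. This gave 137 of 8799 probe sets, for 84 genes. Among the names taken by the C1q pattern, C1qbp is a mitochondrial protein and C1qtnf6 a secreted relative of C1q, and neither belongs to the complement cascade.

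All animals were male Sprague Dawley rats, an outbred strain. The control group received a sheep immunoglobulin for 4 days and the other group a sheep antibody against rat follicle-stimulating hormone (FSH) for the same time, so both groups carried foreign immunoglobulin. Each group had 2 arrays, each from its own RNA sample. All 4 source names give postnatal day 18. The labels conflict on age, with injections from day 18 and collection on day 22 in 1 place and a start on day 14 in another. They also name ovaries where the material was testis, and they describe both pooled organs and single numbered rats, so how many animals stand behind an array is not settled. The title of antibody replicate 2 names another condition, and its group rests on its source name. P-values therefore measure the spread between these RNA samples only.

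In the testis, macrophages are the main resident leukocytes and lie between the tubules next to the Leydig cells. MHC class I molecules, loaded with peptide by the Tap transporter, show cell contents to cytotoxic T cells and are found on most cells. MHC class II molecules show ingested antigen to helper T cells and are found mainly on macrophages, dendritic cells and B cells. Chemokines guide leukocytes, interleukins carry signals between them, and Sertoli cells, the somatic cells of the tubule, themselves make interleukin 1 alpha. Whole testis was measured, so fewer cells of a type and less RNA per cell cannot be told apart.

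The deposited intensities were compared on the log2(intensity + 16) scale, and a log2 change is the antibody mean minus the control mean, given with its standard error from limma. A probe set was tested when its mean log2 value was at or above 5.30, an intensity of about 23.4, and 61 members of 48 genes were. Another 74 members were dimmer and 2 were the array's own control probe sets for mouse Il4 and Il10. Dim members were more frequent here (54.8%) than among all probe sets (39.9%). Just inside the limit were Cxcl10, Ccr1 and a C1qb probe set, with mean log2 values of 5.39 to 5.40, and just below it Il3, Il15 and Il5, with 5.18 to 5.22. No detection calls were used, so it cannot be told which of these signals were above background.

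Sertoli, Leydig and germ cell markers were read on these arrays (8, 5 and 7 genes, all tested), which fits the labelled tissue. Some of them differed between the groups. Star, the cholesterol carrier of steroid synthesis in Leydig cells, fell from 75.9 and 86.2 to 25.5 and 12.8 (-1.49 ± 0.23, limma adjusted p = 0.0418). The other Leydig genes went both ways. Cyp11a1 read 104.6 and 95.1, then 185.1 and 121.3 (0.52 ± 0.21), and Hsd17b3 gave 0.22 ± 0.21. Cyp17a1 and Lhcgr gave -0.17 ± 0.17 and -0.22 ± 0.20. The Sertoli cell genes Inha and Shbg had lower values (-0.90 ± 0.19 and -0.66 ± 0.16) and Ctsl and Amh higher ones (0.56 ± 0.16 and 0.52 ± 0.16), with adjusted p of 0.122 to 0.437 by limma. Clu, Wt1, Gata4 and Fshr gave 0.03 ± 0.15, -0.06 ± 0.17, 0.14 ± 0.22 and 0.30 ± 0.22. Of the 7 germ cell genes 5 had changes below 0, with a median of -0.27. Their summed intensity was 1428.7 and 2211.5 in the controls and 1715.9 and 1156.2 after the antibody. Among them Ldhc read 41.6 and 333.6, then 143.6 and 41.3 (-0.57 ± 0.71). The part of these changes in the immune values was not tested. Of 8 macrophage markers on the array, 4 were tested. Of 12 T and natural killer cell markers 5 were tested, and neither the B cell marker Cd79b nor the 2 neutrophil markers S100a8 and S100a9 reached the tested range. No marker of these lists was at 0 on any array. With 2% of probe sets trimmed from each end, the mean intensity came to 125 on all 4 arrays, so they had been brought to 1 level. Their lower quartiles still differed, at 9.40 and 8.80 in the controls and 10.4 and 11.7 after the antibody. The median over the members below the limit was 4.8 and 5.6 in the controls, 5.55 on antibody array 1 and 9.3 on antibody array 2.

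No immune probe set passed an adjusted p of 0.05 (limma with Benjamini-Hochberg adjustment over all 5252 tested probe sets), where 14 of the 5252 (0.267%) did. The smallest adjusted p of a member was 0.184, for Cxcr1. At an unadjusted p below 0.05, 4 of 61 members had higher values after the antibody (6.56%, against 3.98% of all tested probe sets) and 3 lower (4.92%, against 4.13%). Those with higher values were single probe sets of Cxcr1, Lyz2, RT1-Ba and RT1-Bb, and those with lower values were single probe sets of C1qb, Lgals3 and Cxcl14. Both antibody arrays lay above both control arrays for 24 members (39.3%, against 21.9% of all) and below them for 7 (11.5%, against 15.5%). The median log2 change was 0.13 over the members and 0.03 over all tested probe sets, and 45 of 61 changes (73.8%) lay above 0, against 55.3%.

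**Figure D1:**
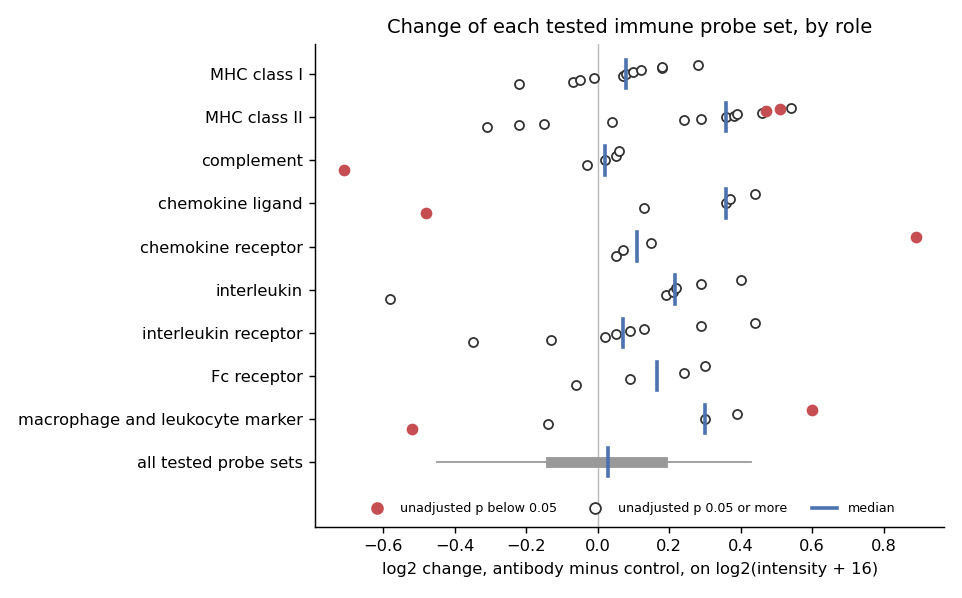
Log2 change of each of the 61 tested immune probe sets (x axis, antibody minus control on the log2(intensity + 16) scale) by role (rows). Each circle is 1 probe set, filled in red where the unadjusted p was below 0.05, the blue bar is the median of a row, and the bottom row shows the median, the middle 50% (thick line) and the 5th to 95th percentiles (thin line) of all 5252 tested probe sets. Medians of MHC class II and of the chemokine ligands stand at 0.36 and that of MHC class I at 0.08, and the values farthest out are Cxcr1 at 0.89 and C1qb at -0.71.

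Much of this shift sat on a single array. Antibody array 2 held the highest of the 4 values for 35 of 61 members (57.4%), against 30.5% of all tested probe sets, while control array 1 held it for 3 members. Dim probe sets as a whole leaned the same way. Below a mean log2 value of 6.5, a boundary set after the values were seen, antibody array 2 was highest for 37.2% of all tested probe sets and for 24 of 39 members (61.5%). At or above it the shares were 26% and 11 of 22 members (50%). Without antibody array 2 the median change of the members was 0.09, and without antibody array 1 it was 0.22. In the fits with 1 array left out, the remaining array of a group takes its spread from the other group. Without antibody array 1, probe sets of Cxcr1, RT1-Da and Cd74 had higher values past the adjusted threshold by limma (0.647% of all tested probe sets did) and Il12b a lower one (2.27%, and 2.91% in either direction). In that fit 15 members had higher values at an unadjusted p below 0.05, against 6.07% of all. Without antibody array 2, no member had a higher value past the adjusted threshold (0.647% of all did) and Il1rl2 had a lower one (1.14%, and 1.79% in either direction). Without control array 1 the median change of the members was 0.15, and without control array 2 it was 0.14.

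**Figure D2:**
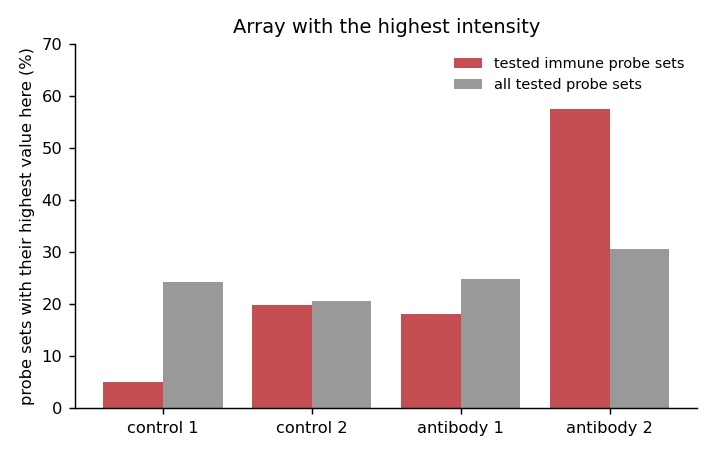
Share of probe sets (y axis, percent) whose highest intensity fell on each of the 4 arrays (x axis), for the 61 tested immune probe sets (red) and all 5252 tested probe sets (grey). On antibody array 2 the red bar stands at 57.4% and the grey bar at 30.5%, and on control array 1 they stand at 4.9% and 24.2%.

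The tested MHC class I members showed close values in both groups. All 11 tested probe sets had log2 changes between -0.22 and 0.28, with a median of 0.08 (-0.01 with the 60th percentile filter), and no unadjusted p was below 0.05. This does not cover RT1-A3, too dim to test, or probe sets of several class I symbols, which were no members. Their readings parted more and are given at the end. B2m, the light chain shared by class I molecules, read 337.5 and 370.9 in the controls and 360.8 and 323.3 after the antibody, a change of -0.05 ± 0.17. The groups overlapped. The classical heavy chain RT1-A (M31018_f_at) was at 460.9 and 631.7 in the controls and at 461.2 and 463.5 after the antibody, so 1 control array stood above the other 3 values (-0.22 ± 0.19, limma adjusted p = 0.847). RT1-CE16 gave 514.3 and 650.3, then 509.7 and 593.5 (-0.07 ± 0.18), and RT1-CE12 gave -0.01 ± 0.17. These 3 probe sets carry the suffix _f, which Affymetrix used for probes shared by a sequence family, so reads of the related class I chains cannot be separated. RT1 genes also differ widely between rat strains, and how well the probes match the alleles of these animals was not tested.

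The loading machinery and the nonclassical chains were as close. Tap1, 1 subunit of the peptide transporter, read 109.7 and 120.8 in the controls and 124.0 and 119.4 after the antibody on its first probe set (0.07 ± 0.17) and gave 0.18 ± 0.19 on the second. Tap2, the other subunit, read 58.0 and 55.3, then 62.1 and 64.2. Its groups did not overlap, yet the change of 0.12 ± 0.18 was smaller than its error. RT1-M5, a nonclassical chain, had the highest change of class I, from 100.8 and 80.8 to 103.7 and 124.2 (0.28 ± 0.19, limma adjusted p = 0.763). RT1-S3 gave 0.18 ± 0.18 and 0.08 ± 0.27 on 2 probe sets, and RT1-M3-1, which presents formylated peptides, gave 0.10 ± 0.18.

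MHC class II probe sets were higher after the antibody in 10 of 13 cases (55.3% of all tested probe sets were), with a median change of 0.36. Of the 13, 2 had higher values at an unadjusted p below 0.05 by limma, where 3.98% of all did. With no filter, the median over all 24 class II probe sets was 0.13, against 0.06 over all probe sets. RT1-Ba, the alpha chain of the B molecule, read 86.9 and 98.0 in the controls and 115.8 and 164.6 after the antibody by the probe set K02815_s_at. All antibody values stood above the controls, with a change of 0.51 ± 0.20 (limma unadjusted p = 0.0301, adjusted p = 0.58). That change was 0.28 without antibody array 2 and 0.74 without antibody array 1. A second probe set barely separated the groups, with 62.9 and 36.6 against 64.2 and 72.7 (0.39 ± 0.23), and in another they overlapped, with 26.9 and 59.9 against 42.4 and 62.0 (0.24 ± 0.28). RT1-Bb, the beta partner, read 49.4 and 52.4 in the controls and 71.5 and 81.8 after the antibody by M36151cds_s_at (0.47 ± 0.18, limma unadjusted p = 0.0281, adjusted p = 0.58). Its second tested probe set, X56596_at, did not show this, with 65.1 and 78.1 against 83.3 and 65.0 (0.04 ± 0.19, and below 0 with quantile normalization or median centring).

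For the alpha chain of the D molecule and for the invariant chain, the antibody arrays differed from each other by more than the group means did. RT1-Da, that alpha chain, was at 51.6 and 92.9 in the controls and 71.4 and 162.3 after the antibody by M15562_g_at (0.54 ± 0.33, limma adjusted p = 0.74). The probe set M15562_at, made from the same sequence, read 39.6 and 51.1, then 38.0 and 87.8 (0.29 ± 0.29). Cd74, the invariant chain that guides class II molecules to the endosome, read 47.9 and 53.8 in the controls and 55.8 and 89.8 after the antibody (0.38 ± 0.22). By X13044_g_at it read 14.9 and 41.1, then 26.5 and 62.8 (0.46 ± 0.35). In each of these, antibody array 2 was highest. Without antibody array 1, M15562_g_at gave 1.06 ± 0.25 (adjusted p = 0.00253 by limma) and X13044_g_at 0.91 ± 0.27 (adjusted p = 0.0352 by limma).

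Not every class II gene had higher values. RT1-Db1, the beta partner of RT1-Da, read 33.5 and 48.9 in the controls and 26.6 and 33.2 after the antibody (-0.31 ± 0.22, limma adjusted p = 0.801). Its other probe set, too dim to test, read 15.4 and 18.6, then 5.0 and 21.8, highest on antibody array 2. RT1-DMa, a chain of the DM molecule that exchanges peptides on class II, read 140.0 and 149.0, then 121.3 and 135.7, with lower but close values (-0.15 ± 0.17). RT1-DMb, its partner, was at 24.5 and 35.5, then 37.6 and 12.7, near the limit of testing (-0.22 ± 0.31). RT1-DOa, a chain of the DO molecule that holds DM in check, read 127.0 and 154.6 in the controls and 158.4 and 214.0 after the antibody (0.36 ± 0.20, limma adjusted p = 0.695). Its groups did not overlap, although antibody array 1 was only just above control array 2. Another 11 class II probe sets were too dim to test.

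Arrays of the same group differed in a common direction across class II. Control array 2 read higher than control array 1 for 12 of 13 probe sets, where 42.9% of all tested probe sets did so. Antibody array 2 read higher than antibody array 1 for 11 of 13, where 50.2% did so. Both held together for 10 of 13 (76.9%), against 3 of 11 in class I and 22.9% of all tested probe sets. This count was chosen after the values were seen, several probe sets share a gene or a source sequence, and no test was made of it. Whether same-numbered arrays were handled as pairs is not known. The correlation of their deviations was 0.004, a figure taken over all tested probe sets and not over class II alone. The class II median was 0.16 without control array 1, 0.45 without control array 2, 0.55 without antibody array 1 and 0.10 without antibody array 2. The summed intensity of the 8 macrophage markers was 286.6 and 259.7 in the controls and 324.7 and 384.7 after the antibody, highest on antibody array 2. With Lgals3 added, a macrophage marker among the members that is not on that list and was added after seeing the data, the sums were 637.2 and 767.8, then 595.9 and 692.5, so control array 2 was highest and the order of the arrays depends on the markers summed. Of these 8 markers 6 are members themselves (Lyz2, Cd14, Ptprc, Aif1, Cd53 and Csf1r). The B cell marker Cd79b read 6.9 and 18.0, then 28.9 and 30.9, dim on average. The part of either cell type in the class II values was not tested.

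**Figure D3:**
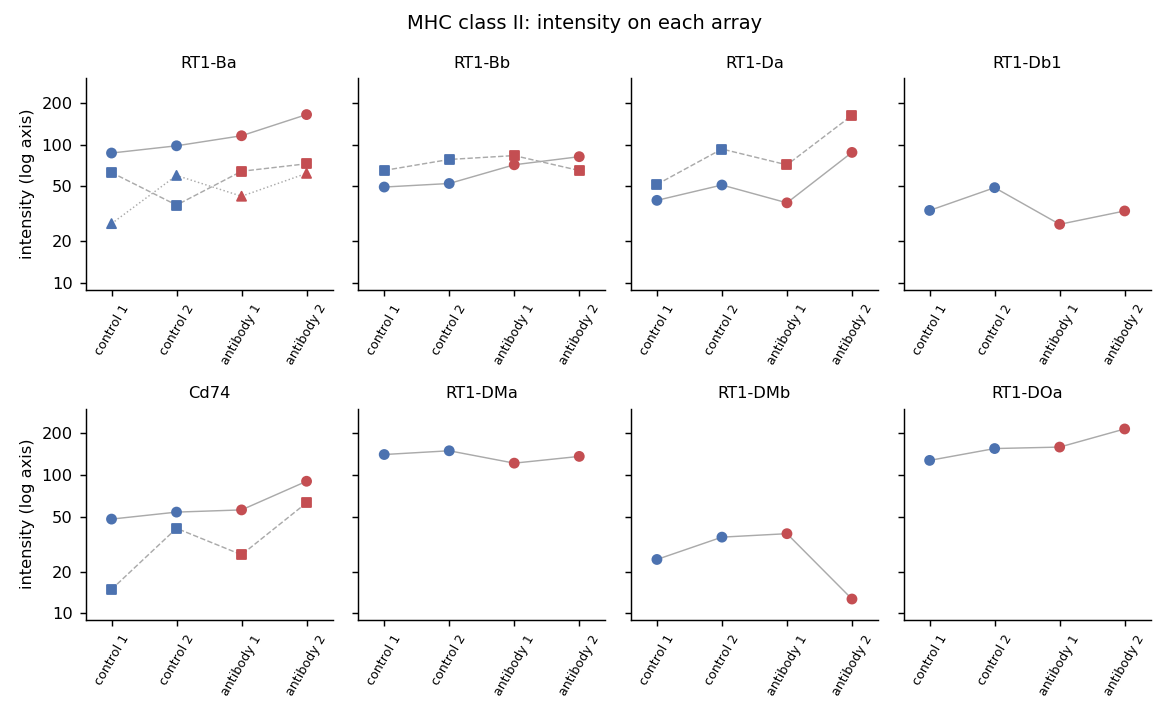
Intensity (y axis, log scale) of the 13 tested MHC class II probe sets on each of the 4 arrays (x axis, controls in blue, antibody in red), with a panel per gene. Each symbol shape is 1 probe set, and a line joins its 4 values. RT1-Da reaches 162.3 and Cd74 89.8 on antibody array 2, while the tested probe sets of RT1-Db1, RT1-DMa and RT1-DMb are highest on another array.

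**Figure D4:**
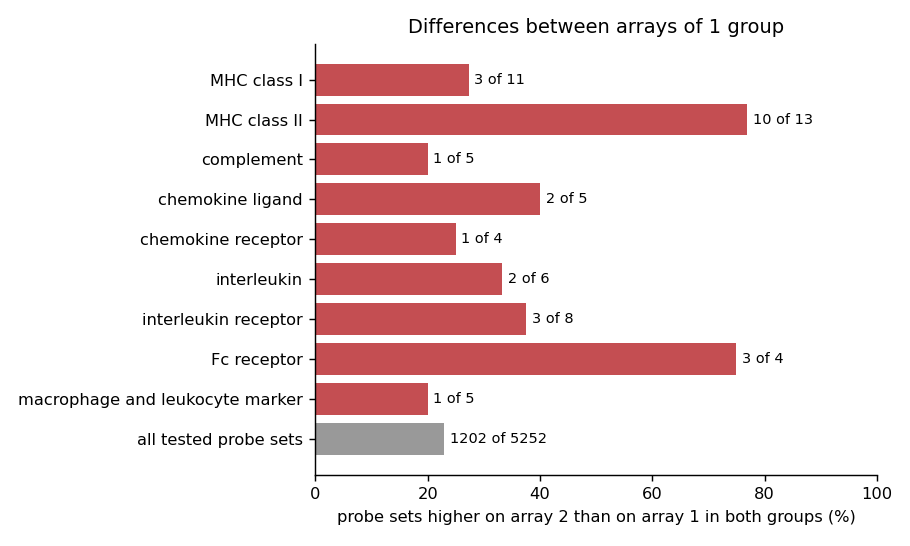
Share of tested probe sets (x axis, percent) that read higher on array 2 than on array 1 in both groups, by role (red) and over all tested probe sets (grey), with the counts beside the bars. MHC class II stands at 10 of 13 and all tested probe sets at 1202 of 5252. The Fc receptor bar rests on 4 probe sets, 3 of them of 1 gene.

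The promoters of the chains just described are shown because class II genes are known to be switched on together through shared promoter boxes, the X box and the Y box, which recruit the coactivator Ciita. The sequences are RefSeq's for build GRCr8 (the Brown Norway strain), each running from 250 bases before the gene's start to 50 bases after it, and of 84 member genes 64 had such an entry. The letters TGATTGG (a form of the Y box that holds the CCAAT motif in reverse) and the letters GC, any base, AC, any base, GATG (a form of the X box) were searched on both strands, with both forms chosen after these sequences were read. Matches are in capitals. RT1-Ba lies at chr20:4576807-4577106 (plus strand), RT1-Bb at chr20:4604069-4604368 (minus), RT1-Da at chr20:4515165-4515464 (plus) and RT1-Db1 at chr20:4560113-4560412 (minus), all written 5′ to 3′ along the gene.
RT1-Ba: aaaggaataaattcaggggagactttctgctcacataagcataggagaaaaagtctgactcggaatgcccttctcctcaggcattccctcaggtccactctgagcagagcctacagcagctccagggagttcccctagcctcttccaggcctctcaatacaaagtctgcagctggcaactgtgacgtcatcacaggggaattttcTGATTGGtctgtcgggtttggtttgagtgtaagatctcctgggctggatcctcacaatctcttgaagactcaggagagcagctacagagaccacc
RT1-Bb: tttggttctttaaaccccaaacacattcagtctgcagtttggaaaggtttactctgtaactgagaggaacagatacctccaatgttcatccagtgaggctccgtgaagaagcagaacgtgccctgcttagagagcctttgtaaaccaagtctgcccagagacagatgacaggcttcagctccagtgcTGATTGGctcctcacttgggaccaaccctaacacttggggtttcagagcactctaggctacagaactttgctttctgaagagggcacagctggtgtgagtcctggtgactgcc
RT1-Da: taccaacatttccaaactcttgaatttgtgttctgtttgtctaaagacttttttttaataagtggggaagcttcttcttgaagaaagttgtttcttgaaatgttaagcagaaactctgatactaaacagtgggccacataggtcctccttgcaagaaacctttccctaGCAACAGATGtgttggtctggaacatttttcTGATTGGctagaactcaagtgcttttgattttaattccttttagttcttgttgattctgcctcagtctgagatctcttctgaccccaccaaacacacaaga
RT1-Db1: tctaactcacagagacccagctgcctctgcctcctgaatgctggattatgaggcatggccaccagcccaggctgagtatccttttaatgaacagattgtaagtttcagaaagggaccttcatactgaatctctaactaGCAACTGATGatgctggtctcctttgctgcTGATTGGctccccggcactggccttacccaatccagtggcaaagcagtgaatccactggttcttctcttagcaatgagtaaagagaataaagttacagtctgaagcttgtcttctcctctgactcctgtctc
The Y box letters began 45, 63, 51 and 82 bases before the start in RT1-Ba, RT1-Bb, RT1-Da and RT1-Db1. They were in 8 of 9 class II promoters, 5 of 10 class I promoters and 7.06% of all 33469 promoters in the table. The X box letters were in 4 of 9 class II promoters, in 0 of 10 class I promoters and in 0.636% of all. RT1-Da and RT1-Db1 both held both sets of letters. The letters GAAA, any 2 bases, GAAA, as in interferon response elements, were in 5 of 10 class I promoters (B2m, Tap1, Tap2, RT1-S3 and RT1-N3), in 0 of 9 class II promoters and in 3.92% of all. A match describes the letters only and does not show a bound site.

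Complement genes gave 1 lower value that a second probe set did not share. C1qb, a chain of the recognition molecule C1q that macrophages make, read 31.3 and 49.2 in the controls and 18.7 and 17.3 after the antibody by X71127_at (-0.71 ± 0.23, limma unadjusted p = 0.0136, adjusted p = 0.489). Both antibody values lay below the limit of about 23.4, so this probe set was tested through its control values. X71127_g_at, from the same sequence, read 17.1 and 35.2, then 22.7 and 31.8, with overlapping groups (0.06 ± 0.26, and below 0 with quantile normalization). C1qc, another C1q chain, was at 121.4 and 90.7, then 91.4 and 125.2 (0.02 ± 0.21). Both C3 probe sets were dim, at 6.4 or below on every array. C1qbp and C1qtnf6, which are no cascade components, gave 0.05 ± 0.17 and -0.03 ± 0.18.

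Most chemokine ligands were too dim to test, and 5 probe sets of 4 genes remained, with a median change of 0.36. The median was 0.10 without antibody array 2, 0.23 without control array 2 and 0.22 over all 14 probe sets with no filter. Cxcl6, which attracts neutrophils, read 45.0 and 29.5 in the controls and 53.5 and 57.4 after the antibody (0.44 ± 0.21, limma adjusted p = 0.634). Its groups did not overlap, and the change was 0.23 without control array 2. Cxcl10, an interferon-induced attractant of T cells, read 18.7 and 23.2, then 23.6 and 41.1 (0.37 ± 0.25), and Ccl2, which attracts monocytes, 20.9 and 22.8, then 23.4 and 43.6 (0.36 ± 0.25). In both of these antibody array 1 lay just above control array 2, and the distance came from antibody array 2. All control values of Cxcl10 and Ccl2 lay below the limit of about 23.4, so both genes were tested through their antibody values. The median of 0.36 was the change of Ccl2. Cxcl14, a chemokine of epithelia, gave opposite readings. By rc_AA874803_g_at it was at 40.8 and 38.5 in the controls and 23.6 and 24.4 after the antibody (-0.48 ± 0.20, limma unadjusted p = 0.0421, adjusted p = 0.605). By rc_AA874803_at it was at 26.1 and 29.9, then 33.9 and 30.1 (0.13 ± 0.21).

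Among chemokine receptors Cxcr1, a receptor for neutrophil attractants, had the highest change of any member. It read 54.8 and 55.1 in the controls and 93.9 and 141.4 after the antibody (0.89 ± 0.21, limma unadjusted p = 0.00188, adjusted p = 0.184). The antibody arrays stood apart from the controls and from each other. Without antibody array 1 its change was 1.15 ± 0.25 (adjusted p = 0.000651 by limma), and with any other array left out its adjusted p by limma was 0.322 to 0.766. Both neutrophil markers were too dim to test: S100a9 read 6.0 and 3.8, then 5.1 and 6.7, with overlapping groups, and S100a8 read 1.4 and 0.9, then 9.2 and 4.0, with higher values after the antibody. The part of neutrophils in the Cxcr1 values was not tested. Cxcr2, the companion receptor, was too dim to test, at 20.0 and 14.7 and then 13.4 and 21.2. Cxcr4, the receptor of Cxcl12, was at 122.5 and 103.8, then 125.3 and 110.0 (0.05 ± 0.18), with a second probe set at 0.07 ± 0.17 and another, dim one that read 22.9 and 18.7, then 12.6 and 11.3. Ccr1 gave 0.15 ± 0.23.

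Interleukins were mostly dim, with 6 probe sets tested and 22 below the limit. Il13, a cytokine of helper T cells, read 45.2 and 48.2 in the controls and 59.8 and 74.3 after the antibody (0.40 ± 0.19, limma adjusted p = 0.634). Il12b, the chain shared by interleukins 12 and 23, read 43.9 and 46.9, then 37.4 and 15.4 (-0.58 ± 0.27, limma adjusted p = 0.633). Its low value was that of antibody array 2, and the change was -0.20 without that array and -0.97 ± 0.28 (adjusted p = 0.0223 by limma) without antibody array 1. A second Il12b probe set was dim, at 4.7 to 9.5. Il18, a cytokine of macrophages, read 32.7 and 24.6, then 34.4 and 42.4 (0.29 ± 0.21). Il1a, the Sertoli cell product, read 44.8 and 33.9 in the controls and 54.1 and 42.7 after the antibody, with overlapping groups (0.22 ± 0.21). Il15 gave 0.21 ± 0.21 and Il1b 0.19 ± 0.22.

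Interleukin receptors had a median change of 0.07 over 8 tested genes, which was 0.01 without antibody array 2 and 0.26 without antibody array 1. Il1rl1, the receptor of interleukin 33, read 24.9 and 22.2 in the controls and 34.5 and 41.0 after the antibody (0.44 ± 0.21, limma adjusted p = 0.634). Il1r2, a decoy receptor that captures interleukin 1, read 40.6 and 42.5, then 52.1 and 56.9 (0.29 ± 0.19). In both the groups did not overlap. Il4r read 74.7 and 67.1, then 75.8 and 82.3 (0.13 ± 0.18). Il1rl2, the receptor of interleukin 36, swung most between arrays, at 51.6 and 82.8 in the controls and 18.5 and 103.9 after the antibody (-0.35 ± 0.47). Leaving out antibody array 2 gave -1.24 ± 0.26 for Il1rl2 (adjusted p = 0.000574 by limma). Il6r, Il6st, Il2rb and Il1rap lay between -0.13 and 0.09.

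Of the Fc receptors, Fcgrt and Fcer2 were tested. Fcgrt, the neonatal Fc receptor that protects circulating immunoglobulin G from breakdown, read 390.8 and 432.5 in the controls and 471.2 and 506.5 after the antibody on 1 probe set (0.24 ± 0.17, limma adjusted p = 0.783). Its other probe sets gave 0.09 ± 0.20 and -0.06 ± 0.17, with overlapping groups. Fcer2, the low-affinity receptor for immunoglobulin E, read 69.2 and 51.3, then 73.7 and 81.3 (0.30 ± 0.19). Fcer1a, the mast cell receptor chain, was dim, at 8.4 and 4.7, then 9.1 and 18.9, and Fcgr2b lay between 3.2 and 12.4.

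Macrophage and leukocyte markers went both ways, with a median change of 0.30 over 5 probe sets. With 1 array left out, the median ranged from 0.14 (without control array 2) to 0.51 (without antibody array 1). It was 0.12 over all 12 with no filter and 0.04 over the 2 left by the 60th percentile filter. Lyz2, the lysozyme of macrophages and granulocytes, read 100.1 and 62.8 in the controls and 120.8 and 138.1 after the antibody (0.60 ± 0.22, limma unadjusted p = 0.02, adjusted p = 0.534). The change was 0.32 without control array 2 and 0.88 without control array 1. Lgals3, a galactose-binding lectin of macrophages and other cells, read 350.6 and 508.1 in the controls and 271.2 and 307.8 after the antibody (-0.52 ± 0.21, limma unadjusted p = 0.0303, adjusted p = 0.58). Without control array 2 it was -0.27, with an adjusted p of 0.961 by limma. In both genes the groups did not overlap, and the control arrays differed from each other by more than the nearest values of the groups did. Cd14, the coreceptor for bacterial lipopolysaccharide, read 55.4 and 46.3, then 64.3 and 78.8 (0.39 ± 0.19), and gave 0.30 ± 0.23 on its second probe set. Ptprc, the common leukocyte antigen, read 35.6 and 33.5, then 41.2 and 21.0 (-0.14 ± 0.25), and its other probe sets were dim. The macrophage markers Csf1r (4.2 and 19.4, then 5.7 and 7.5) and Aif1 (at most 24.5 on any probe set) and the leukocyte marker Cd53 (19.8 and 15.8, then 11.8 and 33.5) were too dim to test.

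**Figure D5:**
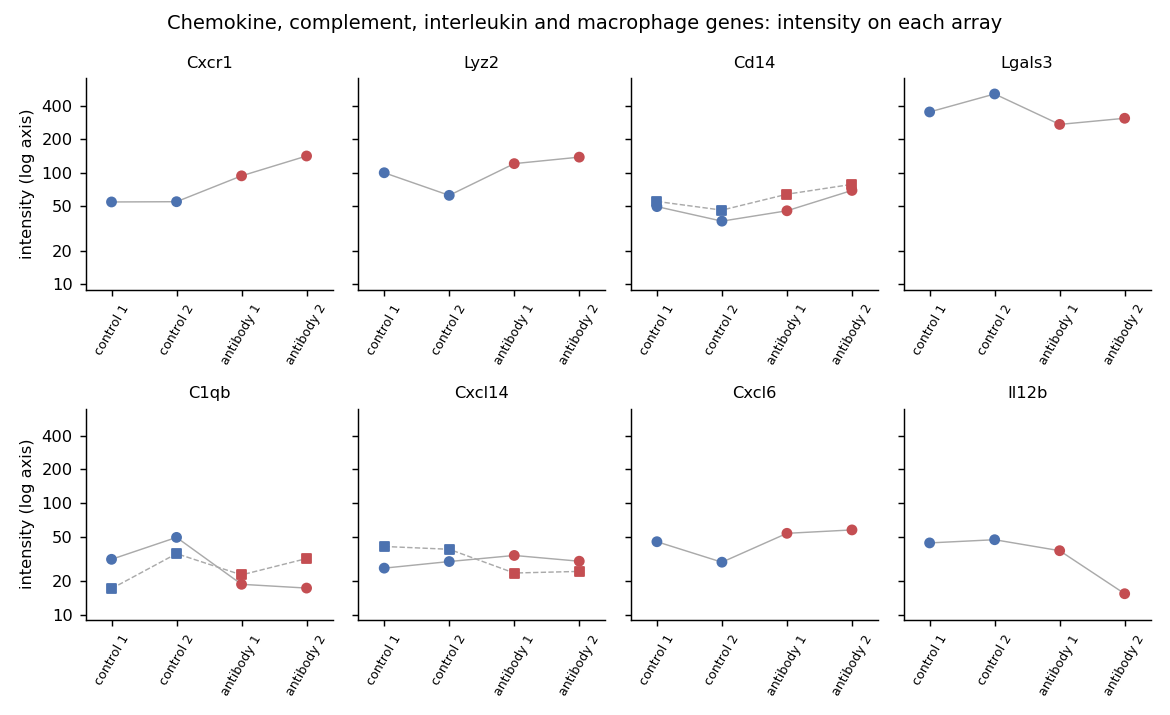
Intensity (y axis, log scale) of tested probe sets of 8 named genes on each of the 4 arrays (x axis, controls in blue, antibody in red), with a panel per gene. Each symbol shape is 1 probe set, and a line joins its 4 values. Cxcr1 goes from 54.8 and 55.1 to 93.9 and 141.4, the probe sets of C1qb and of Cxcl14 part from each other, and the low Il12b value is that of antibody array 2.

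Where a gene had several tested probe sets, 8 of 11 genes had log2 changes of 1 sign on all of them. C1qb, Cxcl14 and Fcgrt did not. C1qb had the widest gap between probe sets (0.77), and Cxcr4 the narrowest (0.02). RT1-Ba and RT1-Bb had gaps of 0.27 and 0.43.

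Genes of the same pathways outside the members did not pass either. Of 11 tested genes of the interferon response and antigen processing, 0 had an unadjusted p below 0.05 by limma, 8 had changes above 0, and the median was 0.11. Psmb8, a subunit of the immunoproteasome encoded beside Tap1, read 112.5 and 175.4 in the controls and 132.3 and 236.5 after the antibody (0.30 ± 0.28). Array 2 was the higher of both groups for Psmb8, Psme1, Psme2, Irf1, Psmb9 and Ifngr1, and not for the other tested genes of the list. The same held for 22.9% of all tested probe sets. Oas1a, an interferon-induced enzyme, read 96.0 and 69.7, then 100.6 and 132.8 (0.43 ± 0.21, limma adjusted p = 0.638). Of 13 tested genes of inflammation and NF-kB signalling, 0 had an unadjusted p below 0.05 by limma, with 9 changes above 0 and a median of 0.15. Nfkbia, the inhibitor of NF-kB, gave 0.30 ± 0.20 and Icam1, a leukocyte adhesion molecule, 0.30 ± 0.21. Among 6 other complement genes the median was 0.04 and 0 had an unadjusted p below 0.05 by limma, with Cfd at -0.68 ± 0.32 and C1r at 0.09 ± 0.17. No gene of these 3 lists passed an adjusted p of 0.05 by limma, where 0.267% of all tested probe sets did.

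Markers of other blood and immune cells were read beside these values. Of 5 tested T and natural killer cell markers 0 had an unadjusted p below 0.05 by limma, with a median of 0.07, and their summed intensity (12 genes) was 293.2 and 292.8 in the controls and 277.2 and 319.4 after the antibody. Tpsab1, a mast cell tryptase, read 23.4 and 17.8, then 34 and 37.5 (0.50 ± 0.21, limma unadjusted p = 0.0427, adjusted p = 0.605), while Kit, found on mast cells and germ cells, gave 0.05 ± 0.18. The control values of Tpsab1 lay at or below the limit of about 23.4, so it was tested through its antibody values. The 5 endothelial markers summed to 185.4 and 188.8, then 203.0 and 263.8. The 3 erythroid markers summed to 1512.5 and 2575.6 in the controls and 1357.2 and 1501.7 after the antibody, so control array 2 stood above the other arrays. Most of these sums came from Hbb, at 1253.2 and 2260.0, then 1150.7 and 1356.6 (-0.43 ± 0.25). Alas2, the heme synthesis enzyme of red cell precursors, fell from 158.4 and 218.0 to 72.8 and 51.9 (-1.38 ± 0.21, limma adjusted p = 0.0418). Slc4a1, the remaining erythroid marker, did not share this, with 100.9 and 97.6, then 133.7 and 93.2 (0.15 ± 0.20). The part of these cells in the immune values was not tested.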

How the data were processed

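Testis RNA of 2 control and 2 antibody samples was hybridised to Affymetrix arrays. The authors deposited an intensity on a linear scale for each probe set. The software, background correction and scaling behind it (not given in the sources used here) could shift dim values most. Precision is limited by having 2 arrays a group. Symbols came from the platform annotation, and members and roles were assigned on them. For 6994 of 7018 single-symbol probe sets the Entrez identifier was found in RefSeq's GRCr8 gene table. The symbol in that table was used to look up marker genes, pathway genes and promoters. A further 308 probe sets had several symbols and 1473 had none.

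Groups came from the source names. The 59 control probe sets were left out. Values were analysed as log2(intensity + 16), which understates changes of dim genes. Probe sets at or above the 40th percentile of the mean were fitted together in limma 3.58.1 (R 4.3.3; lmFit, then eBayes allowing for a trend of the variance with intensity), and two-sided p-values were adjusted by Benjamini and Hochberg's method. On 20 simulated data sets of this comparison (5252 probe sets, 200 changed) the fit recovered 70.8% of 2-fold and 99.4% of 4-fold changes, and 5.00% of its calls were false. The changes were set on the log2(intensity + 16) scale, so in dim genes they stand for larger changes of intensity. The simulated noise was independent between probe sets, so these rates do not cover shifts shared by many probe sets of an array.

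Named probe sets were those with an unadjusted p below 0.05, the 3 smallest p-values and the brightest of each role, and all tested probe sets of those genes. Others were named after their values were seen. Alternatives were quantile normalization, median centring, a constant of 1 or 64, no filter or the 60th percentile, no intensity trend, each array left out and a replicate block. Members and lists were chosen with earlier results of these data known.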

Additional observations from a re-analysis of the deposited data

How the results depend on the processing

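No member passed the adjusted threshold under quantile normalization, median centring, a constant of 1 or 64, either filter, no intensity trend or the replicate block. Few or no probe sets of any kind passed in some of these fits. Over all probe sets, 0 of 5252 passed with quantile normalization, 0 of 8740 with no filter and 4 with median centring. With a constant of 1 or 64, 10 and 21 passed, and 13 with the 60th percentile filter and 10 with no intensity trend. The smallest adjusted p of a member by limma in these fits ranged from 0.0674 (replicate block) to 0.33 (quantile normalization). Leaving out 1 array gave 0 to 3 members called higher and 0 to 1 called lower, 1 to 15 higher and 0 to 3 lower at an unadjusted p below 0.05, and a median change of 0.09 to 0.22. At an unadjusted p below 0.05, 9 members were higher with no filter (135 members tested), where 5.09% of all 8740 probe sets were. With the 60th percentile filter 1 member was lower (28 tested, with no interleukin or chemokine ligand among them). The replicate block gave 5 higher and 3 lower and a median of 0.13. Over all tested probe sets, the share at an unadjusted p was counted for the main fit. Otherwise it was counted only for higher values with no filter and without antibody array 1. The other member counts at an unadjusted p cannot be set against an array-wide rate. Whether the array numbers pair the samples is not known. The block changed no call of a member, and over all tested probe sets 39 passed, against 14 in the main fit. Of 36 named probe sets, 25 kept their direction in every setting run. Under quantile normalization RT1-Bb X56596_at gave -0.0034 and C1qb X71127_g_at -0.01, and under median centring the former gave -0.01. With 1 array left out in turn, 11 named probe sets changed sign: RT1-CE16 M11071_f_at (-0.24 to 0.09), RT1-A M31018_f_at (-0.44 to 0.0044), RT1-S3 rc_AI235890_s_at (-0.23 to 0.40), RT1-Ba X07551cds_s_at (-0.17 to 0.65), RT1-Bb X56596_at (-0.11 to 0.18), C1qb X71127_g_at (-0.25 to 0.38), C1qbp (-0.02 to 0.12), Cxcr4 U90610_at (-0.05 to 0.16) and U90610_g_at (-0.02 to 0.17), and Fcgrt X14323cds_at (-0.13 to 0.31) and X14323cds_g_at (-0.13 to 0.01). Their cause was not tested, although either filter setting changes how many are tested. Signal over background was not analysed here, so what it limits is not known.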

Other observations

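Some members too dim for the main comparison had separate groups. With no filter on brightness, 9 of 135 member probe sets had higher values at an unadjusted p below 0.05 by limma, where 5.09% of all 8740 probe sets did, and 5 of the 9 lay below the usual limit. Il2ra, the alpha chain of the interleukin 2 receptor, read 4.3 and 3.6 in the controls and 12.8 and 18.4 after the antibody (0.66 ± 0.15, limma adjusted p = 0.307). RT1-A3, a class I chain, read 9.3 and 6.8, then 19.6 and 28.5 (0.73 ± 0.19, limma adjusted p = 0.372). A dim RT1-Bb probe set (U65217_i_at) read 1.3 and 0.8, then 8.3 and 16.1 (0.71 ± 0.15, limma adjusted p = 0.296). Il33, the ligand of Il1rl1, read 7.0 and 5.1, then 12.2 and 11.8 (0.35 ± 0.13, limma adjusted p = 0.583), and Ccr2, the receptor of Ccl2, read 1.6 and 1.8, then 3.4 and 7.4. Of the 74 members below the limit, 55 had the higher mean after the antibody. The share over all probe sets below the limit was not counted. Among all tested probe sets with a mean log2 value below 6.5, 62.5% had changes above 0. Dim probe sets as a whole read higher on antibody array 2, whose lower quartile was 11.7, and the part of this in these values was not tested.

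Single arrays stood out for a few dim cytokines, picked after their values were seen. Ccl5, a T cell attractant, read 51.2 on control array 2 and 4.2, 4.4 and 12.8 on the others. Il5, a cytokine of eosinophils, read 58.2 on antibody array 2 and 9.7, 14.7 and 13.7 on the others.

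Probe sets that pair with several symbols were no members, and 8 of them included an immune name. For the class I group RT1-A, RT1-CE16 and RT1-A1 their readings parted. AF074609mRNA_f_at read 281.0 and 384.8 in the controls and 409.9 and 465.4 after the antibody, M64795_f_at read 61.9 and 66.7, then 27.0 and 14.0, and M64795_i_at read 29.5 and 50.4, then 15.9 and 41.1. For RT1-N2 and RT1-N3, L23128_g_at read 9.4 and 13.5, then 36.7 and 29.4, while L23128_at, which pairs with RT1-N3 alone, read 32.1 and 14.6, then 12.1 and 14.8.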
